A study of Mus musculus with 2 samples.

Results

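The genes described here are 10 of the 31053 features measured, chosen by symbol for their place in MHC class I antigen presentation: H2-K1, H2-D1, B2m, Tap1, Tap2, Tapbp, Psmb8, Psmb9, Nlrc5 and H2-M2. All 10 were matched in both libraries. The cells came from the gut lamina propria of mice and are labelled "cd11b+", CD11b being the myeloid surface protein encoded by Itgam. Each genotype gave 1 single-cell library: wild type (WT), and a knockout (KO) labelled LncRNA17Rik, for which the name lncLy6c is used in the study. The study asked how this long non-coding RNA bears on gut resident macrophages. It describes a CRISPR-Cas9 deletion in C57BL/6J mice, with no cell type-restricted driver, and male mice 8 weeks of age whose cells were pooled. It names 6 mice without saying how they divide between the libraries. No feature carries the symbol LncRNA17Rik, so the deletion itself was not checked here.

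MHC class I molecules display fragments of the proteins made inside a cell to CD8 T cells. A heavy chain, encoded by H2-K1 or H2-D1, pairs with the light chain beta-2-microglobulin, the product of B2m. Peptides are cut by the proteasome, carried into the endoplasmic reticulum by the TAP1-TAP2 transporter and loaded onto the heavy chain with the help of tapasin, the product of Tapbp. Interferon signalling, in part through the transcription factor IRF1, is known to raise these genes and to exchange proteasome catalytic subunits for the immunoproteasome subunits encoded by Psmb8 and Psmb9. NLRC5 is a transactivator of class I promoters, and H2-M2 is a nonclassical class I heavy chain.

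In the GENCODE M21 annotation (GRCm38), most members lie in the MHC on chromosome 17. H2-K1 (ENSMUSG00000061232) spans chr17:33996017-34000347 on the minus strand, and H2-D1 spans chr17:35262730-35267499 on the plus strand. Psmb9 (chr17:34181987-34187764), Tap1 (chr17:34187553-34197225), Psmb8 (chr17:34197721-34201454) and Tap2 (chr17:34203527-34216321) are neighbours, and Tapbp (chr17:33915899-33929292) lies nearby. H2-M2 is at chr17:37480851-37483552, B2m on chromosome 2 and Nlrc5 on chromosome 8. Psmb9 and Tap1 are read in opposite directions from overlapping starts, so their promoter windows overlap.

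Stretches of 5 promoters are shown because they hold the interferon and NF-kappaB motifs by which the members differ. They come from RefSeq (GRCm38.p6), which gave a window of 300 bases, 250 before the start, for 8 members and none for Tap2 and Nlrc5. RefSeq starts can differ from the GENCODE ones, and the H2-D1 and Psmb8 stretches lie inside the GENCODE gene spans given above. Capitals mark matches on either strand to an interferon-response-like motif (GAANNGAAA, or in B2m its longer form, GAAA on both sides of 2 bases), a kappaB-like motif (GGGNNTTCC) or a gamma-interferon-activated-site-like motif (TTCNNNGAA):
H2-K1, chr17:34000429-34000458, minus strand: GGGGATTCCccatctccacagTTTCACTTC
H2-D1, chr17:35262923-35262952, plus strand: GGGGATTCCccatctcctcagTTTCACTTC
B2m, chr2:122147538-122147567, plus strand: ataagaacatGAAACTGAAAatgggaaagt
Psmb8, chr17:34198088-34198117, plus strand: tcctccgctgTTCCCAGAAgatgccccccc
H2-M2, chr17:37483707-37483736, minus strand: tagGGGAATTCCagcaaGGGAATTCCtcac

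The H2-K1 and H2-D1 stretches shared 29 of 30 bases, with both motifs kept. H2-M2 held 2 kappaB-like matches side by side, and an interferon-response-like match elsewhere in its window. Tap1, Psmb9 and Tapbp held none of these 4 motifs. Among 32851 promoter windows of the same length, 7.52% held GAANNGAAA, 3.44% its longer form, 5.82% GGGNNTTCC and 8.30% TTCNNNGAA. The 2 interferon-response spacings cannot match at the same start and were counted apart. A match describes the letters and is not a shown binding site.

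The WT library kept 2597 cells of 3185 barcodes and the KO library 2514 of 3020, with median depths of 5073 and 6564.5 UMIs per cell (unique molecular identifiers, each marking 1 captured molecule). A single barcode sequence occurred in both. Cells were clustered and named from marker genes, and a name ending in "-like" means only that such markers were raised. The comparison was made in the 8 named classes that had 50 or more WT and 50 or more KO cells: B cell-like (201 WT and 85 KO cells), T cell-like (168 and 63), cDC1-like (208 and 354), cDC2-like (151 and 322), eosinophil-like (200 and 408), inflammatory monocyte-like (90 and 332), neutrophil-like (79 and 273) and resident macrophage-like (165 and 125). cDC1 and cDC2 are the conventional dendritic cells, of which the former is known for presenting material from other cells on class I. A cluster of 611 WT and 45 KO cells with 5 resident macrophage and 4 inflammatory monocyte markers raised was kept apart and is called mixed. It made up 23.5% of WT and 1.79% of KO cells. Itgam was detected in 47.0% to 84.6% of cells of the 6 myeloid classes, but in 12.9% of WT and 1.18% of KO B cell-like cells, so the preparation held cells other than those its label names. Only Siglecf, Ccr3 and Alox15 were raised in eosinophil-like cells, and these cells had only 757 and 970.5 UMIs at the median. Levels are UMIs per 1000000 UMIs of a class and library (CPM). Every molecule gives 1 count at its 3' end, so no division by transcript length was made.

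With 1 library per genotype there is no replicate, no p-value and no measure of the spread between mice. The 95% intervals are exact and cover counting error only. The ratios below are log2 of KO over WT CPM. Over the 8 classes, 70 pairs of a member and a class had at least 20 UMIs in both libraries together. The interval lay below 0 in 47 of the 70 pairs, against 20.3% of the 54289 pairs over all genes, and above 0 in 7, against 9.57%. Shares of intervals over all genes, here and below, were not matched for UMI count. The more UMIs a gene has, the smaller the difference whose interval clears 0. The part of abundance in these contrasts was not tested. At least 2-fold lower in KO were 16 of the 70 (all genes 9.28%), a count that was 10 relative to the class median of all genes and 4 with the whole interval past a fold of 2, and 1 was at least 2-fold higher (all genes 4.27%). The median ratio of the members was -0.61, against -0.16 over all genes. By class, the median over all genes lay between -0.28 in T cell-like and 0.03 in eosinophil-like cells, and every class median of the members was lower, between -0.35 and -0.76.

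Background shares differed by class and are given with the members' counts, first for the lower side. The interval lay below 0 for 4 of 9 members in B cell-like cells (all genes 13.9%), 7 of 9 in T cell-like cells (23.4%), 7 of 9 in cDC1-like cells (20.2%) and 6 of 9 in cDC2-like cells (29.2%). In the other myeloid classes it lay below 0 for 2 of 6 members in eosinophil-like cells (9.30%), 7 of 9 in inflammatory monocyte-like cells (18.3%), 6 of 9 in neutrophil-like cells (14.8%) and 8 of 10 in resident macrophage-like cells (22.9%). The share of members exceeded that of all genes, not matched for UMI count, in each of the 8 classes. The 7 pairs with an interval above 0 were H2-D1 in B cell-like, cDC1-like, cDC2-like and neutrophil-like cells, Psmb8 in cDC1-like and cDC2-like cells, and H2-M2 in resident macrophage-like cells.

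Members at least 2-fold lower in KO numbered 3 of 9 in B cell-like cells (all genes 10.4%), 4 of 9 in T cell-like cells (20.8%), 1 of 9 in cDC1-like cells (2.44%) and 1 of 9 in cDC2-like cells (7.79%). They numbered 1 of 6 in eosinophil-like cells (5.92%), 1 of 9 in inflammatory monocyte-like cells (8.67%), 2 of 9 in neutrophil-like cells (11.3%) and 3 of 10 in resident macrophage-like cells (10.4%). The only member at least 2-fold higher in KO was H2-M2 in resident macrophage-like cells, where 3.88% of all genes were. No member was at least 2-fold higher in B cell-like (1.83% of all genes), T cell-like (4.61%), cDC1-like (2.66%), cDC2-like (3.92%), eosinophil-like (8.35%), inflammatory monocyte-like (4.87%) or neutrophil-like cells (7.52%). With 1 to 4 members past a fold of 2 per class, these shares rest on few genes.

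**Figure D1:**
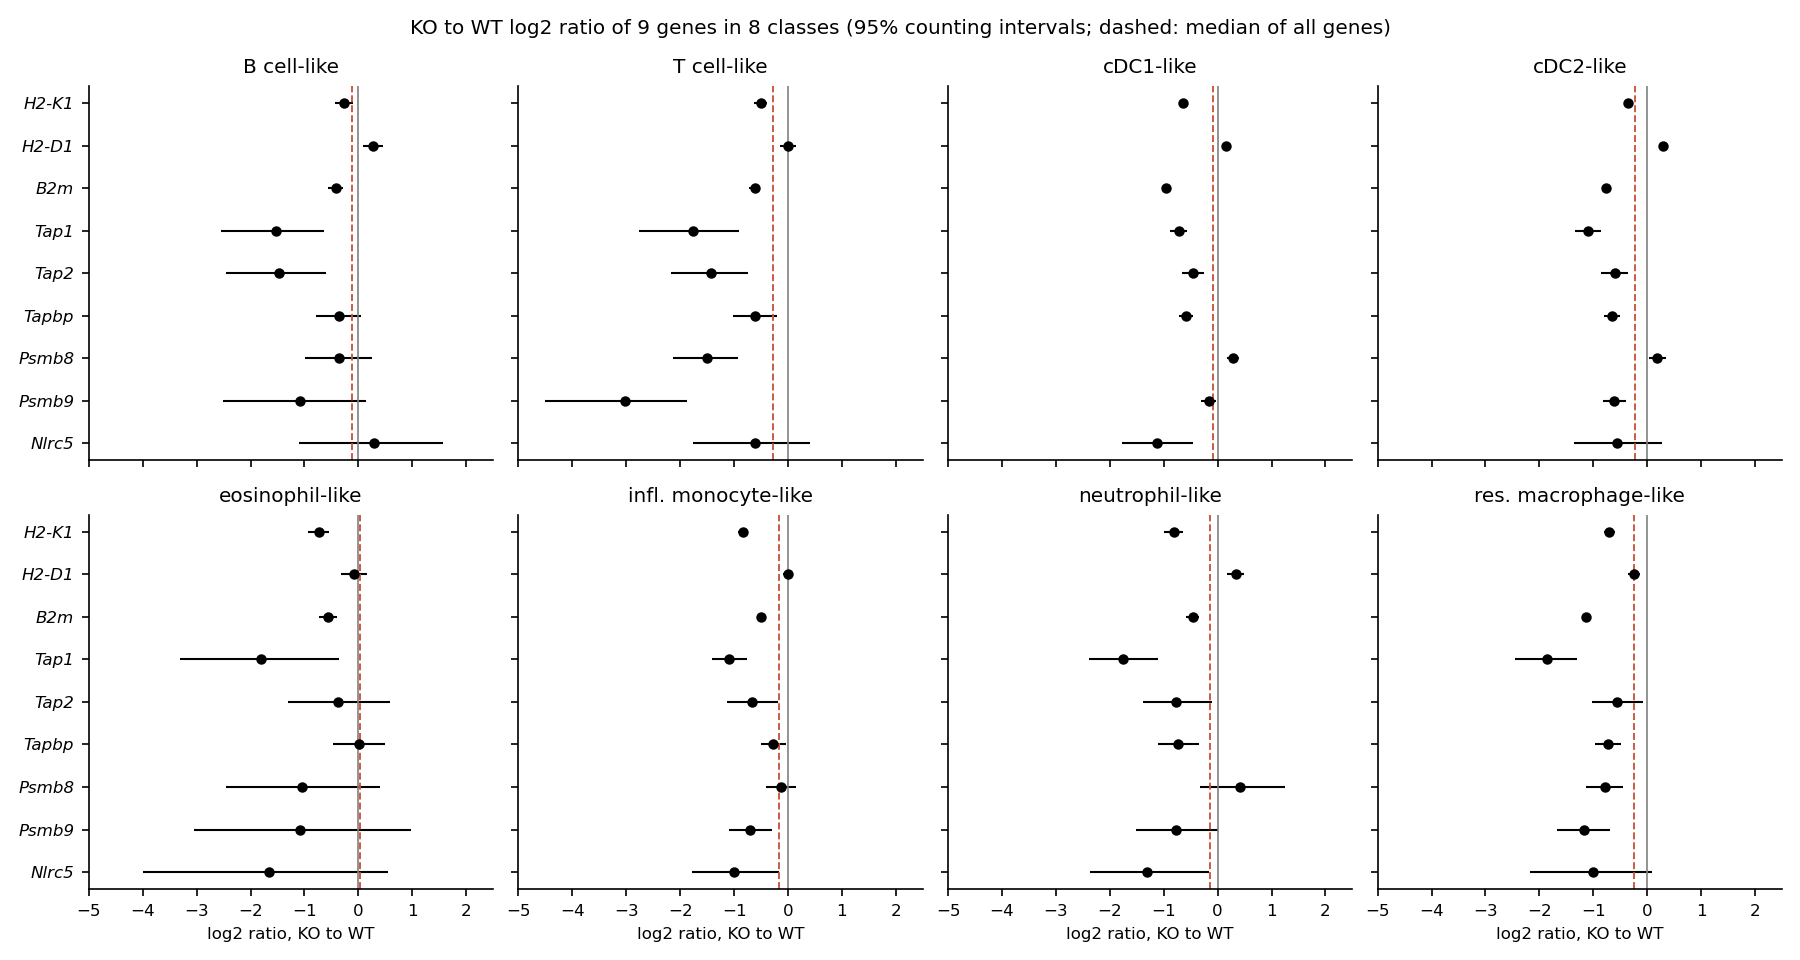
log2 ratio of KO over WT (horizontal axis) for 9 members in a panel for each of the 8 classes, with 95% counting intervals as bars, a grey line at 0 and a dashed line at the median of all genes. H2-K1, B2m and Tap1 sit left of 0 in every panel and H2-D1 lies on both sides, from -0.24 in resident macrophage-like to 0.34 in neutrophil-like cells.

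H2-K1, a classical heavy chain, was lower in KO in all 8 classes. Resident macrophage-like cells gave 2249 CPM in the WT library and 1382 CPM in the KO library, and inflammatory monocyte-like cells 2229 and 1257 CPM. Neutrophil-like cells gave 1821 and 1035 CPM and eosinophil-like cells 2021 and 1211 CPM. These 4 classes, each taken as a whole, had the widest gaps, with ratios of -0.83 (95% interval -0.92 to -0.73) in inflammatory monocyte-like cells, -0.82 (95% interval -0.99 to -0.64) in neutrophil-like cells, -0.74 (95% interval -0.93 to -0.54) in eosinophil-like cells and -0.70 (95% interval -0.80 to -0.61) in resident macrophage-like cells. In the dendritic classes H2-K1 was at 1297 and 833 CPM in cDC1-like cells and 1381 and 1074 CPM in cDC2-like cells. In the lymphoid classes it was at 2427 and 1709 CPM in T cell-like cells and 1272 and 1061 CPM in B cell-like cells. B cell-like cells had the smallest gap, -0.26 (95% interval -0.43 to -0.10), and none of the 8 intervals reached 0.

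Single cells were also compared with the WT median. Of KO neutrophil-like cells, 86.1% lay under the WT median of H2-K1 per 10000 UMIs, as did 85.7% of KO T cell-like, 81.9% of inflammatory monocyte-like, 81.9% of cDC1-like and 79.2% of resident macrophage-like cells. The shares were lower in eosinophil-like (70.8%), cDC2-like (68.6%) and B cell-like cells (62.4%). cDC1-like cells were made of 2 clusters that did not move alike. In the larger one (180 WT and 252 KO cells) H2-K1 stood at 1423 and 809 CPM, and in the smaller one (28 and 102 cells), led by genes of dividing cells such as Top2a and Birc5, at 861 and 863 CPM, a ratio of 0.00 (-0.15 to 0.16). For the 2 clusters together the ratio was -0.64. At Leiden resolution 0.5, where clusters were drawn and named anew, cells named cDC1-like had a ratio of 0.0022. They need not be the same cells, and which clusters they came from was not examined. Inflammatory monocyte-like cells were also made of 2 clusters. The larger (74 and 293 cells) was at 1919.96 and 1229 CPM of H2-K1, -0.64, and the smaller (16 and 39 cells), with interferon-induced genes such as Rsad2 and Ifit1 among its top 10, at 3443 and 1546 CPM, -1.15. In T cell-like cells both clusters were lower, with ratios of -0.41 and -0.31.

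H2-D1, the other classical heavy chain, did not share this direction. Neutrophil-like cells held 1965 and 2484 CPM, cDC2-like cells 1084 and 1322, B cell-like cells 832 and 1003 and cDC1-like cells 1182 and 1319. In these 4 classes the interval lay above 0, with ratios of 0.34, 0.29, 0.27 and 0.16. Inflammatory monocyte-like cells had 2121 and 2120.1 CPM, T cell-like cells 1384 and 1387 CPM and eosinophil-like cells 1109.9 and 1049.6 CPM, with intervals that spanned 0. Among the compared classes, each taken as a whole, resident macrophage-like cells alone had an interval below 0. They were at 1439 and 1217 CPM and -0.24 (95% interval -0.35 to -0.13). The smaller inflammatory monocyte-like cluster alone was at -0.24 (-0.47 to -0.02), and the larger spanned 0. Outside the compared classes, fibroblast-like cells were lower, at 1813 and 527 CPM and -1.78 (-2.08 to -1.50). Epithelial cell-like (0.44), natural killer cell-like (0.42) and mixed cells (0.21) had intervals above 0. The smaller T cell-like cluster, led by Lef1 and Tcf7 (26 and 30 cells), had 652 and 1142 CPM. The resident macrophage-like value turned to 0.013 when set against the median ratio of all genes in the class.

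The share of H2-K1 among the UMIs of both heavy chains does not depend on the total count. It ranged over 48.1% to 64.6% (WT) and 29.4% to 55.2% (KO), and was lower in KO with intervals that did not overlap in 8 of 8 classes. In WT neutrophil-like cells H2-K1 gave 48.1% (44.5% to 51.7%) of the UMIs, and in KO 29.4% (27.9% to 31.0%). This was the widest fall, by 18.7 percentage points, and the narrowest was by 7.83 points. In resident macrophage-like cells the share went from 61.0% to 53.2%, in inflammatory monocyte-like cells from 51.2% to 37.2% and in cDC1-like cells from 52.3% to 38.7%. H2-K1 and H2-D1 are close relatives, and the part of reads matching both in this share was not tested. In the last 500 bases of H2-K1 transcripts, where 3' reads fall, 2 of 1323 windows of 90 bases (0.151%) matched another class I gene exactly, and no window of the other 9 members did.

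**Figure D2:**
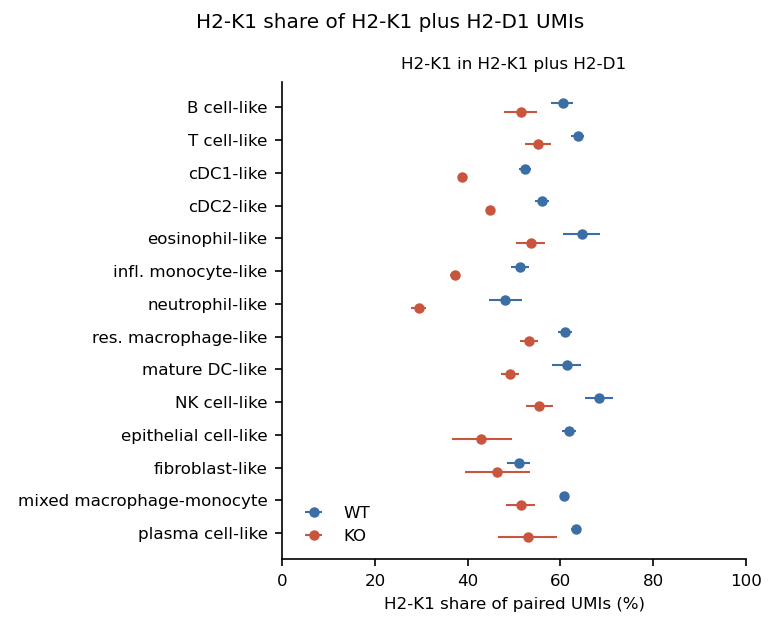
H2-K1 in percent of H2-K1 plus H2-D1 UMIs (horizontal axis) for the 8 classes, 5 smaller classes and the mixed cells, in the WT (blue) and KO (red) library, with 95% counting intervals. The KO point lies left of the WT point in every row, from 48.1% to 29.4% in neutrophil-like cells.

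B2m, the light chain that every class I heavy chain needs, was lower in KO in all 8 classes as well. It was at 4714 and 2149 CPM in resident macrophage-like cells, the widest gap at -1.13 (95% interval -1.21 to -1.06), and at 2286 and 1184 CPM in cDC1-like cells, -0.95 (95% interval -1.0 to -0.90). cDC2-like cells had 2361 and 1397 CPM and T cell-like cells 3360 and 2189.8 CPM. Inflammatory monocyte-like cells were highest in KO among the 8, at 3177 CPM against 4486 CPM in WT. Neutrophil-like cells stood at 3712 and 2693 CPM, eosinophil-like cells at 2772 and 1879 CPM and B cell-like cells at 2018 and 1510.3 CPM, with ratios from -0.42 to -0.56 in these 3 classes. Of KO resident macrophage-like cells, 94.4% lay under the WT median, and 90.4% of KO cDC1-like cells did. Both cDC1-like clusters were lower in KO, at -1.05 in the larger and -0.41 in the smaller one.

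Of 2856 genes with 20 UMIs in every class, 20 had an interval below 0 in all 8 classes (0.700%). These genes were not matched for UMI count, and few UMIs widen an interval, so scarce genes can seldom be among the 20. H2-K1 and B2m were among them, of 6 members that could be, and H2-Q6 of the wider lists below was too.

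The 2 subunits of the peptide transporter were lower in KO. Tap1 was at 126 and 34.7 CPM in resident macrophage-like cells (135 and 34 UMIs), -1.86 (95% interval -2.45 to -1.31). Neutrophil-like cells had 184 and 54.6 CPM (37 and 52 UMIs), T cell-like cells 104 and 30.4 CPM and B cell-like cells 87.7 and 30.5 CPM, the last 2 with only 12 UMIs each in KO. Inflammatory monocyte-like cells gave 199 and 92.9 CPM, with ratios of -1.15 in their larger and -0.26 in their smaller cluster, and cDC2-like cells 145 and 67.6 CPM. Tap1 was thus at least 2-fold lower in 6 of the 7 classes with 20 UMIs. The exception was cDC1-like cells, where Tap1 was at 235 and 142 CPM and -0.72 (95% interval -0.89 to -0.56). Among the 8 classes these were the highest values, but in WT the interval overlapped those of inflammatory monocyte-like and neutrophil-like cells.

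Tap2 moved less far. Its interval lay below 0 in 7 of 8 classes, from -1.47 (95% interval -2.45 to -0.61) in B cell-like cells to -0.45 (95% interval -0.65 to -0.25) in cDC1-like cells (139 and 102 CPM). In resident macrophage-like cells Tap2 was at 94.3 and 64.3 CPM, -0.55, where the Tap1 ratio was -1.86. The share of Tap1 among the UMIs of both subunits was lower in KO in 8 of 8 classes by value, with intervals apart in 2. It went from 57.2% to 35.1% in resident macrophage-like cells.

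Tapbp, which holds the empty heavy chain at the transporter, was lower in 6 of 8 classes, each taken as a whole. Neutrophil-like cells had 383 and 231 CPM (-0.73), resident macrophage-like cells 374 and 227 CPM (-0.72), cDC2-like cells 343 and 217 CPM (-0.66) and cDC1-like cells 343 and 228 CPM (-0.59). T cell-like cells had 254 and 167 CPM and inflammatory monocyte-like cells 327 and 271 CPM. Neither of the 2 inflammatory monocyte-like clusters alone had an interval below 0. The larger was at 271 and 236 CPM (-0.20, -0.48 to 0.09). The smaller, with 16 of 90 WT and 39 of 332 KO cells, was at 550 and 635 CPM (0.21, -0.22 to 0.65). The part of cluster make-up in the class value was not tested. Eosinophil-like cells, at 287 and 288 CPM, and B cell-like cells, at 221 and 173 CPM, had intervals that spanned 0. None of the 8 classes reached a fold of 2 for Tapbp.

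**Figure D3:**
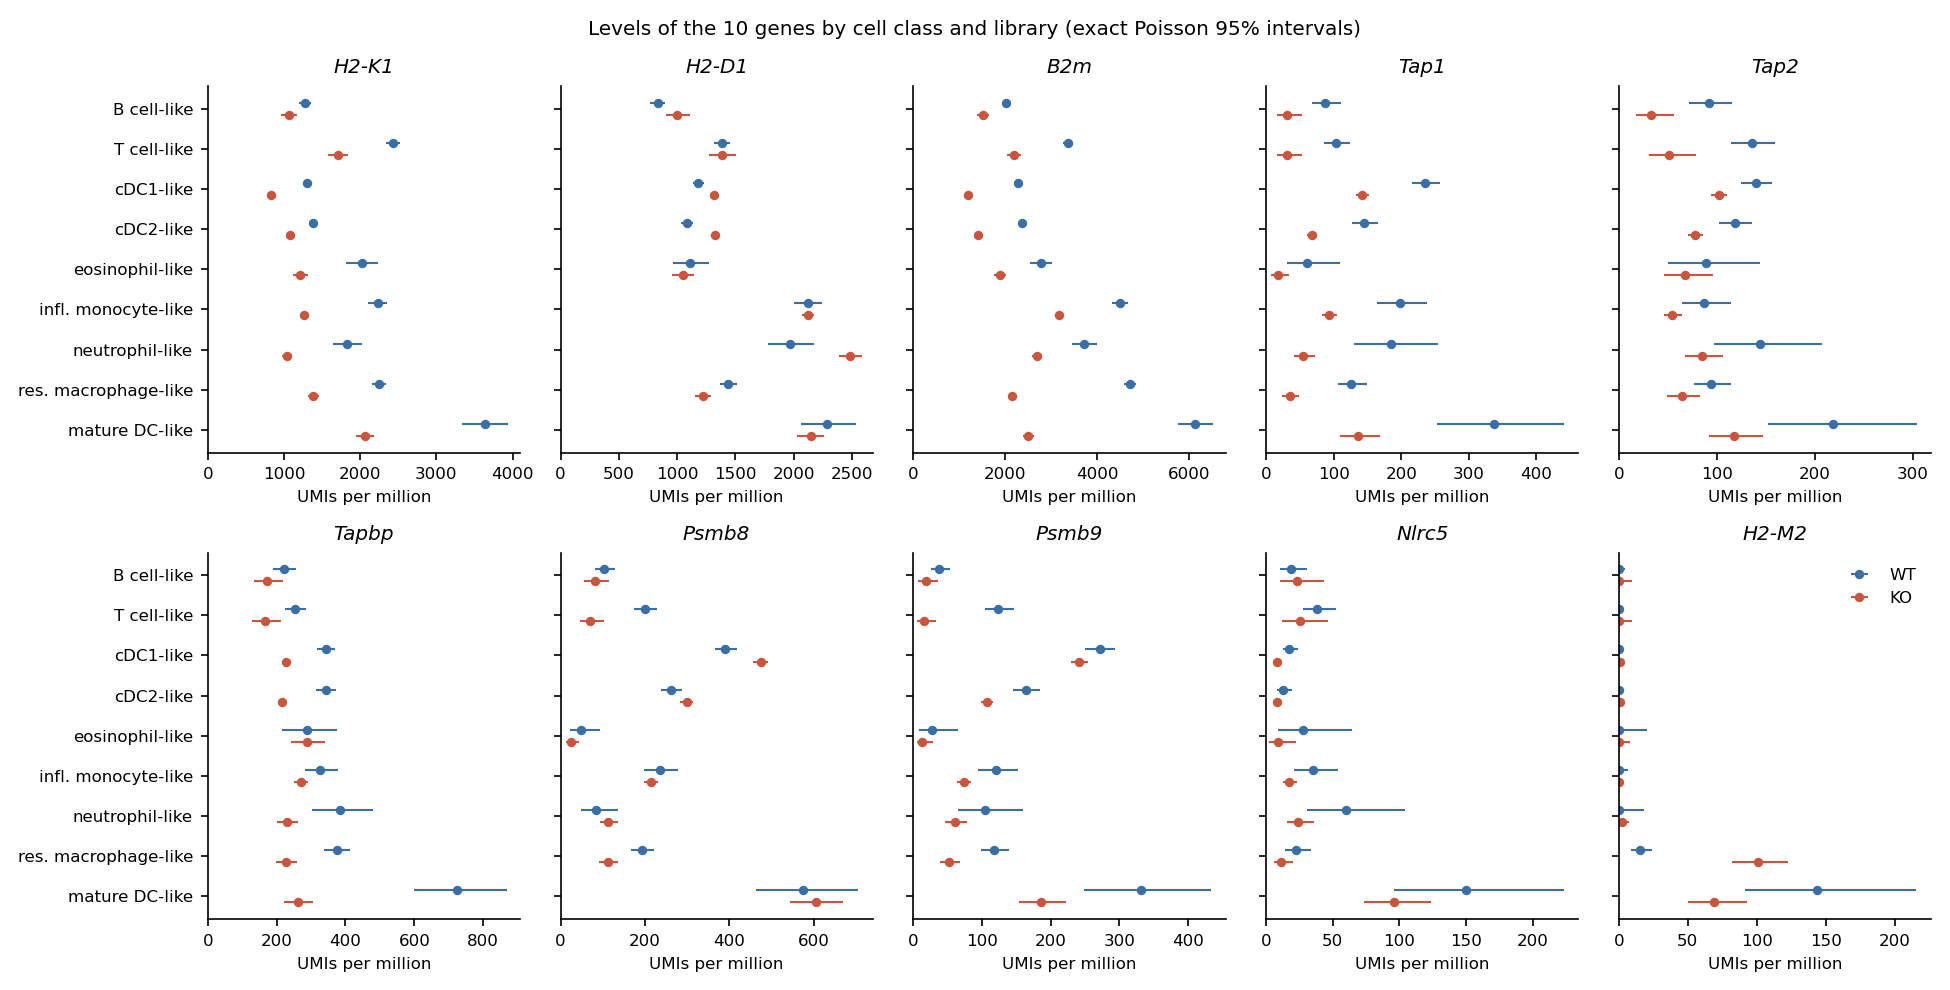
CPM (horizontal axis, linear, a scale for each gene) of the 10 members in the 8 classes and in mature dendritic cell-like cells, for the WT (blue) and KO (red) library, with exact 95% Poisson intervals as bars. Red lies left of blue for H2-K1 and B2m in every class drawn, while H2-M2 is at 14.9 in WT and 101 in KO resident macrophage-like cells.

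The immunoproteasome subunits did not move together. Psmb8, which replaces the constitutive subunit encoded by Psmb5, stood higher in cDC1-like cells than in the other 7 classes, and higher there in KO, 391 and 475 CPM (855 and 2736 UMIs) with a ratio of 0.28 (95% interval 0.17 to 0.39). cDC2-like cells gave 263 and 299 CPM, 0.19 (95% interval 0.03 to 0.34), a direction that turned to -0.10 with 4000 variable genes. In T cell-like cells Psmb8 was lower in KO, 201 and 70.9 CPM (219 and 28 UMIs), -1.50 (95% interval -2.13 to -0.93), and so it was in resident macrophage-like cells, 193 and 112 CPM, -0.78 (95% interval -1.13 to -0.44). Eosinophil-like cells had 49.7 and 24 CPM, resting on 9 and 11 UMIs, past a fold of 2 but with an interval that spanned 0. The remaining classes had 104 and 81.2 CPM (B cell-like), 235 and 214 CPM (inflammatory monocyte-like) and 84.6 and 113 CPM (neutrophil-like), with intervals that spanned 0.

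Psmb9, the partner of Psmb8 that replaces the subunit encoded by Psmb6, was lower in KO in 5 of 7 classes. T cell-like cells had 124 and 15.2 CPM, resting on 135 and 6 UMIs, -3.03 (95% interval -4.50 to -1.87). The summed level of 6 natural killer cell markers in this class was 13677 CPM in the WT library against 50.6 CPM in the KO one, so a different kind of cell and a different level per cell cannot be told apart, also within a cluster. Within the cluster that held most WT T cell-like cells, the ratios were -2.53 for Psmb9 and -1.28 for Psmb8 (142 and 33 cells). Resident macrophage-like cells had 118 and 52.0 CPM, -1.18 (95% interval -1.68 to -0.70), inflammatory monocyte-like cells 120.1 and 73.7 CPM, and cDC2-like cells 164 and 107 CPM. In cDC1-like cells, where Psmb9 was highest of the 8 classes, the levels were 271 and 242 CPM and the ratio -0.17 (95% interval -0.31 to -0.03). Neutrophil-like cells, at 104 and 60.9 CPM, and B cell-like cells, at 37.6 and 17.8 CPM (30 and 7 UMIs), had intervals that reached past 0.

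Shares were also taken against the constitutive counterparts. Psmb8 made up 75.2% of Psmb8 plus Psmb5 UMIs in WT and 74.9% in KO cDC1-like cells, and 71.7% and 71.5% in cDC2-like cells. Its share was lower in KO in 7 of 8 classes by value, with intervals apart in 1, T cell-like cells, from 69.3% to 50%. Psmb9 made up a smaller part of Psmb9 plus Psmb6 in KO in 7 of 8 classes by value, with intervals apart in 5. The share went from 59.7% to 40.8% in resident macrophage-like cells, from 58.7% to 44.6% in cDC2-like cells, from 58.0% to 42.4% in inflammatory monocyte-like cells, from 65.7% to 60.3% in cDC1-like cells and from 57.0% to 20.0% in T cell-like cells. Neutrophil-like cells were the exception, with 63.6% (45.1% to 79.6%) in the WT and 71.6% (60.5% to 81.1%) in the KO library. The third pair, Psmb10 and Psmb7, had a lower KO share in 6 classes by value, with intervals apart in cDC1-like cells (54.5% to 40.7%) and cDC2-like cells (55.7% to 44.6%).

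**Figure D4:**
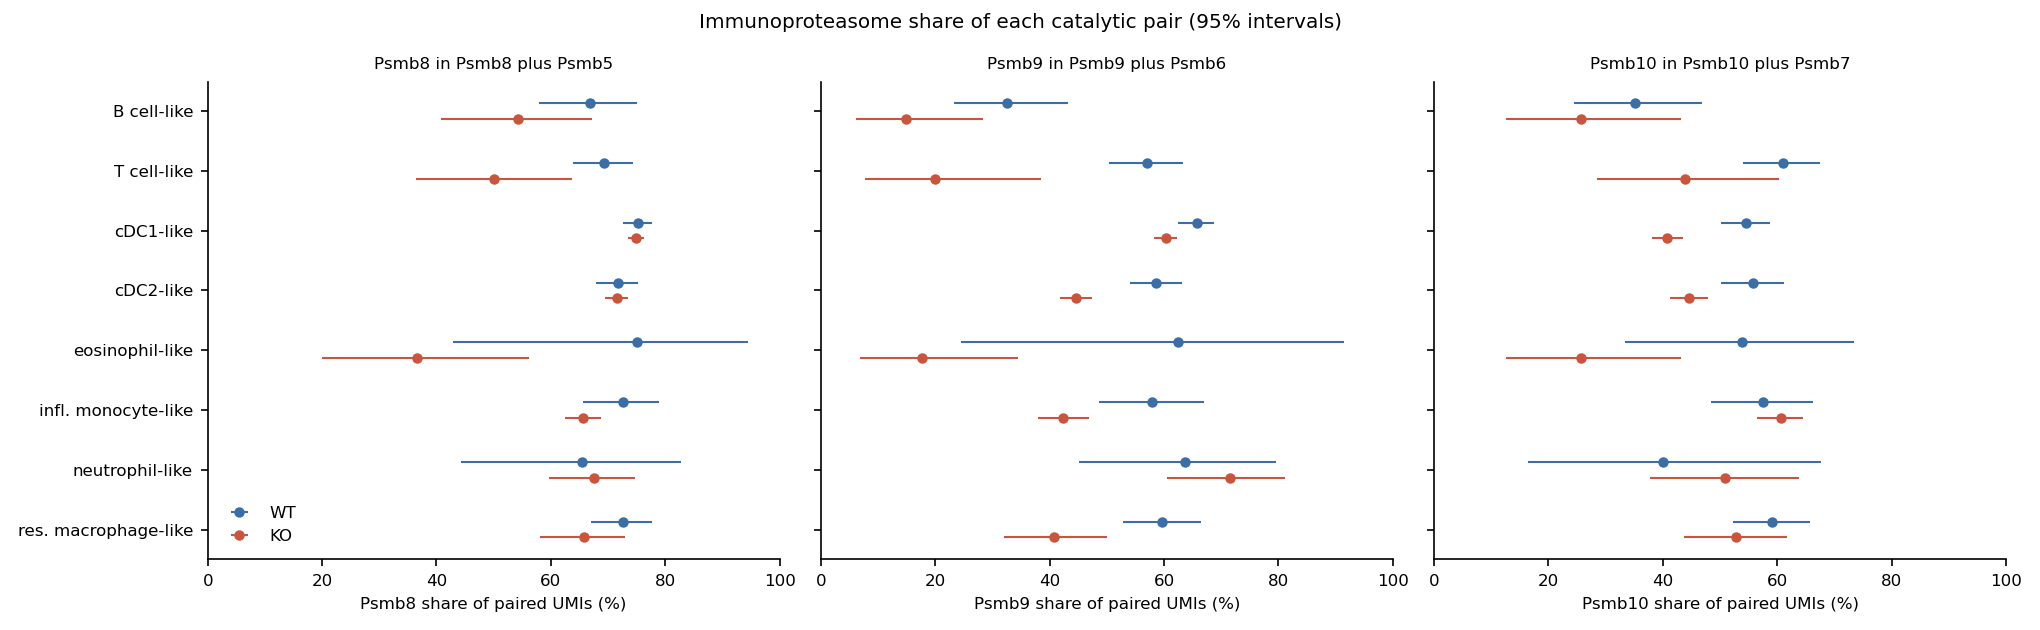
Percent of UMIs from the immunoproteasome subunit in each pair with its constitutive counterpart, by class and library, with 95% counting intervals. In cDC1-like cells the Psmb8 share is level at 75.2% and 74.9%, while the Psmb9 share goes from 65.7% to 60.3%.

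Nlrc5 was scarce, between 7.98 and 59.7 CPM in the 8 classes. It was lower in KO in 3 of the 7 classes with 20 UMIs: cDC1-like cells at 17.4 and 7.98 CPM (38 and 46 UMIs), inflammatory monocyte-like cells at 34.8 and 17.4 CPM (20 and 50 UMIs) and neutrophil-like cells at 59.7 and 24.1 CPM (12 and 23 UMIs). The ratios were -1.12 (95% interval -1.77 to -0.46), -1.0 (95% interval -1.78 to -0.18) and -1.31 (95% interval -2.37 to -0.17). In inflammatory monocyte-like cells the larger cluster had 28.4 and 13.3 CPM and the smaller 60.1 and 59.9 CPM. The intervals of the other 4 classes spanned 0 at this depth. Outside the 8 classes it was highest in mature dendritic cell-like cells, at 149.99 and 96.2 CPM (19 WT and 40 KO cells).

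H2-M2 behaved unlike the other members. It gave 52 UMIs in 15 cells of the WT library and 160 UMIs in 36 cells of the KO library. In WT, resident macrophage-like cells held 16 of these UMIs (30.8%) and mature dendritic cell-like cells 23 (44.2%). In KO, resident macrophage-like cells held 99 (61.9%) and mature dendritic cell-like cells 43 (26.9%). B cell-like, T cell-like, eosinophil-like and inflammatory monocyte-like cells gave 0 UMIs in both libraries. With the floor of 3 counts used for a count of 0, KO inflammatory monocyte-like cells could hold up to 1.04 CPM, and the exact 95% interval ends at 1.28 CPM.

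Resident macrophage-like cells held H2-M2 at 14.9 CPM (WT) and 101 CPM (KO), 2.76 (95% interval 1.99 to 3.62). It was detected in 7 of 165 WT cells (4.24%, 95% interval 1.72% to 8.55%) and in 15 of 125 KO cells (12%, 6.87% to 19.0%). These intervals overlap. Few cells held most of the difference, since the 5 highest KO cells gave 76 of the 99 UMIs (76.8%) and the highest alone 24. KO cells with H2-M2 were also deeper, with a median of 12728 UMIs against 6512.5 in those without. Thinned to 2000 UMIs per cell, the shares were 1.56% and 5.56%, and at 1000 UMIs 0.685% and 1.69%. At Leiden resolution 0.5 they were 1.61% and 5.61%. With the mixed cells counted as resident macrophage-like, an alternative chosen after seeing the data, they were 1.55% and 8.82%. In mature dendritic cell-like cells the levels were 144 and 68.9 CPM, and in WT all 23 UMIs came from 1 cell.

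**Figure D5:**
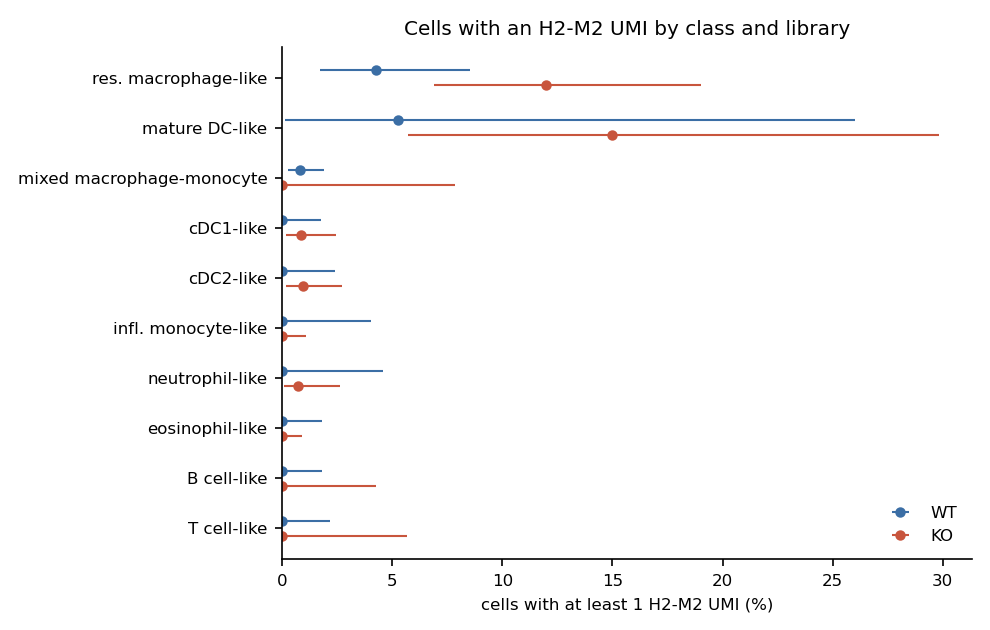
Percent of cells with at least 1 H2-M2 UMI (horizontal axis) by class, for the WT (blue) and KO (red) library, with exact 95% intervals. Resident macrophage-like cells stand at 4.24% and 12% with overlapping intervals, and B cell-like, T cell-like, eosinophil-like and inflammatory monocyte-like cells at 0.

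Levels in the other classes widened the range. H2-K1 was highest in natural killer cell-like cells of both libraries (4278 and 3302 CPM, 26 and 41 cells), with an interval apart from the next class in each. Mature dendritic cell-like cells followed in WT (3631 CPM, 19 cells), and below them mixed and T cell-like cells overlapped each other. Inflammatory monocyte-like and resident macrophage-like cells in WT overlapped each other in turn, both under the mixed cells, and epithelial cell-like cells came last at 1054 CPM. Mature dendritic cell-like cells held more B2m than any of the 8 classes in WT (6125 CPM), and stood at 2498 CPM in KO. Psmb8 was at 575 and 604 CPM there, and Tapbp at 725 and 261 CPM. Mixed cells, which were nearly all from WT, held 159.8 and 170.2 CPM of Tap1, 359.8 and 362 of Tapbp and 233 and 358 of Psmb8, with intervals that spanned 0 for the former pair and lay above 0 for Psmb8. In the same cells H2-K1 (2433 and 1926 CPM) and B2m (4597 and 3077 CPM) had intervals below 0. With the mixed cells counted as resident macrophage-like, an alternative chosen after seeing the data, the ratios in that class became -0.97 for B2m, -1.23 for Tap1, -0.42 for Psmb8 and 3.80 for H2-M2, in the same directions. Fibroblast-like cells, 80 WT and 21 KO, had the widest B2m gap of any class, 4018 and 809 CPM.

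The wider pathway was read from lists. Irf1, an interferon-induced activator of class I and Psmb9, had an interval below 0 in 7 of 8 classes, with 537 and 113 CPM in neutrophil-like cells (-2.24). Over the 13 regulators, 36 of 85 pairs with a class had an interval below 0 (42.4%, against 20.3% over all genes) and 1 above (1.18%, against 9.57%).

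Of 15 other class I genes, 14 were in the files and 10 had 20 UMIs in a class. Their intervals were below 0 in 36 of 55 pairs (65.5%, all genes 20.3%) and above 0 in 2 (3.64%, all genes 9.57%). H2-T22, a nonclassical heavy chain, was lower in 6 of 7 classes, with a ratio of -1.95 in resident macrophage-like cells (86.8 and 22.4 CPM). H2-Q6 and H2-Q7, class I genes of the Q region, were lower in 8 and in 6 of 8 classes. In inflammatory monocyte-like cells H2-Q6 was at 212 and 61.9 CPM and H2-Q7 at 268 and 73.4 CPM. The 2 are close copies of each other, so their counts are uncertain one by one.

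For the 7 proteasome partners and activators 19 of 55 pairs were below 0 (34.5%, all genes 20.3%) and 3 above (5.45%, all genes 9.57%). Psme2, a subunit of the interferon-inducible PA28 activator, was lower in 6 classes, with 187 and 85.7 CPM in resident macrophage-like cells. For the 5 other peptide loading genes 12 of 36 pairs were below 0 (33.3%, all genes 20.3%) and 6 above (16.7%, all genes 9.57%). Their members differed: Tapbpl, a tapasin relative, was lower in 5 of 6 classes, while Calr, the chaperone calreticulin, had an interval above 0 in 4 of 8 classes and below 0 in neutrophil-like cells.

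The interferon genes themselves went in opposite directions. Ifnb1, which encodes interferon beta, gave 0 UMIs in WT and 264 in KO resident macrophage-like cells (269 CPM), and 0 and 162 in inflammatory monocyte-like cells. Against a floor of 3 counts in WT, KO was at least 96.2-fold higher in resident macrophage-like cells and at least 10.8-fold higher in inflammatory monocyte-like cells. Ifng, which encodes interferon gamma, was at 152 and 22.8 CPM in T cell-like cells (-2.74) but at 438 and 1219 CPM in natural killer cell-like cells (1.48, 26 and 41 cells), and over each whole library at 17.7 and 11.6 CPM (-0.61). Cd8a, part of the T cell co-receptor for class I, was at 343 and 53.2 CPM in T cell-like cells (-2.69). T cell-like cells came mainly from 1 cluster in WT (142 of 168 cells) and from that and a second one in KO (33 and 30 cells), so a different make-up of the class and a different level per cell cannot be told apart there. A further cluster of 75 WT and 47 KO cells had 6 T cell markers raised but stayed unnamed. Its ratios were -0.81 for H2-K1, -0.93 for B2m, -1.72 for Tap1 and 0.17 for Psmb8, the last with an interval that spanned 0. Over the 6 ligand and receptor genes 11 of 37 pairs were below 0 (29.7%, all genes 20.3%) and 8 above (21.6%, all genes 9.57%). Over the 7 receptors for class I 9 of 20 were below 0 (45%, all genes 20.3%) and 5 above (25%, all genes 9.57%).

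Within KO resident macrophage-like cells, 40 cells had an Ifnb1 UMI and 85 had none. H2-K1 was at 1614 CPM (1488 to 1748) in the former and 1238 CPM (1151 to 1330) in the latter. B2m was at 2212 and 2110 CPM and Tap1 at 37.4 and 33.0 CPM, with overlapping intervals. Cells with Ifnb1 were deeper, at medians of 8695.5 and 6320 UMIs. H2-M2 was at 61.4 CPM in cells with Ifnb1 and 125 CPM in cells without. Of cells with H2-M2, 6 of 15 had an Ifnb1 UMI (40.0%), and of those without, 34 of 110 (30.9%).

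Markers of some other cell types moved with the library and others did not. The summed level of 6 plasma cell markers lay between 191 and 1278 CPM in the 8 WT classes and between 67.2 and 161 CPM in the 8 KO classes, lower in KO in 8 of 8. The sum of 7 resident macrophage markers in the other 7 classes spanned 43.1 to 683 CPM (WT) and 17.8 to 215 CPM (KO), lower in 6 of 7. Epithelial markers were lower in KO in 8 of 8 classes and B cell markers in 7 of 7 others. Neutrophil markers were lower in only 4 of 7, T cell markers in 3 of 7 and eosinophil markers in 2 of 7 of the other classes. Plasma cell-like cells themselves numbered 236 in WT and 5 in KO. The part of free RNA in the ratios was not tested.

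Across 25 sums of a class and library with at least 20 cells, the members followed one another to different degrees. The Pearson correlation of log2 levels was 0.88 for Tap1 and Psmb9, 0.87 for Psmb8 and Psmb9 and 0.85 for H2-K1 and B2m, but 0.64 for H2-K1 and H2-D1. Among 9485 genes outside the lists, the level of H2-D1 was most like that of Gadd45b (0.82), Nfkbiz (0.82) and Icam1 (0.80), and that of B2m most like Gbp9 (0.75), Mef2a (0.74) and Ifi206 (0.70). Tap1 was most like Cxcl9 (0.79), Tapbp most like Gbp2 (0.75), Nlrc5 most like Gbp9 (0.76) and Psmb8 most like Necap2 (0.85). H2-K1 was most like Slc38a2 (0.71), Psmb9 like Mki67 (0.78) and H2-M2 like Zmynd15 (0.87). The points share libraries and depth, and the correlations are descriptions.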

How the data were processed

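Cells of 2 libraries, 1 WT and 1 KO, each from pooled mice, were measured on the 10x Genomics 3' platform (V3 chemistry). What the authors deposited are UMI counts, not normalised, for each gene in each barcode. The file headers name Cell Ranger 3.0.2, and the submitters' processing notes name mm10 and Seurat 4. The KO library was deeper per cell (6564.5 against 5073 UMIs at the median, 23384895 against 22191774 in all). Counting error follows the UMIs of each class, and KO held fewer than WT in B cell-like, T cell-like and resident macrophage-like cells among the 8.

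Cells with 200 to 6000 detected genes and at most 15% mitochondrial UMIs were kept, as in the study, which removed 18.5% of WT and 16.8% of KO barcodes. Doublets were not removed. Both libraries were clustered together (scanpy 1.11.5, leidenalg 0.10.2, scikit-learn 1.9.0, Python 3.11.15) from 2000 variable genes without the class I genes, 30 principal components, 15 neighbours and Leiden resolution 1, which gave 21 clusters. The study used another clustering, so classes may differ from its own. A cluster was named where at least 3 fixed markers were raised 2-fold (prior 10 CPM) in at least 10% of its cells, unless its top 10 genes held more markers of another class. The rule that keeps mixed macrophage and monocyte clusters apart was added once a first clustering had been examined. There were 3 unnamed clusters. In 1 of them (75 WT and 47 KO cells) 6 T cell markers were raised, but its top 10 genes held the innate lymphoid cell marker Gata3 and none of those 6. Another (21 WT and 267 KO cells) had under 3 markers of any class raised.

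UMIs were summed per class and library, with exact Poisson intervals for levels, conditional binomial intervals for ratios and Clopper-Pearson intervals for shares, at 95% (scipy 1.17.1, numpy 2.4.6). They cover counting error only. Ratios over all genes used genes with at least 20 UMIs in a class, and calls at a fold of 2 used a prior of 1 CPM. A count of 0 was given a floor of 3 counts. The interval procedure was run on simulated Poisson counts, which carry only the counting error that the intervals assume. That run checks the computation and, without spread between cells or mice, cannot bear on either. Genes named are the members, genes of the lists with a stated role, and the genes outside the lists most like each member. Some genes of the lists are not reported here by name. The members and lists were chosen with earlier results of these data known. Columns of no known sample numbered 0. Cell filters, clustering settings, doublets, denominators and depth were varied.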

Additional observations from a re-analysis of the deposited data

Results flagged for a closer look

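The difference between libraries had opposite signs in different classes for 2 members. The log2 ratio of H2-D1 was 0.34 in neutrophil-like cells and -0.24 in resident macrophage-like cells, a difference of 0.58. Relative to the median of all genes in the class, the latter value was 0.013, so the signs were no longer opposite. The log2 ratio of Psmb8 was 0.28 in cDC1-like cells and -1.50 in T cell-like cells, a difference of 1.78. Within the cluster that held 142 of 168 WT and 33 of 63 KO T cell-like cells the value was -1.28. Summed natural killer cell markers, Gzma among them, were at 13677 CPM in the WT and 50.6 CPM in the KO T cell-like class. With 1 library per genotype these differences between classes were not tested.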

How the results depend on the processing

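Without replicates, no setting bears on the spread between mice, and counts under 20 UMIs limit Nlrc5, H2-M2 and the eosinophil-like cells. B2m lay below 0 in 118 of 118 alternative values, Tap1 in 117 of 117 and H2-K1 in 117 of 118. The exception was H2-K1 at Leiden resolution 0.5, at 0.0022 in the cells then named cDC1-like, which need not be those of the main class. H2-D1 in resident macrophage-like cells went to 0.013 relative to the median of all genes, and Psmb8 in cDC2-like cells to -0.10 with 4000 variable genes. The cause was not tested. The count of pairs lower in KO, 16 at a fold of 2, was 10 relative to the class median, 40 at a fold of 1.5 and 4 with the whole interval past a fold of 2. The share of resident macrophage-like cells with H2-M2 was 1.61% in WT and 5.61% in KO at resolution 0.5, 1.56% and 5.56% thinned to 2000 UMIs, and 0.685% and 1.69% thinned to 1000 UMIs, where shallower cells are left out. In WT it was 1.55% with the mixed cluster counted as resident macrophage-like, an alternative chosen after seeing the data. Clustering each library alone named only 6 of the 8 classes. No paired analysis was possible because there is 1 library per genotype.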
